A study of Mus musculus with 6 samples.

Results

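The expression of 8 genes that mark the pyramidal cells of the CA1, CA2 and CA3 fields was compared between WT and TG hippocampi, out of 54532 genes measured. They were taken by symbol: Fibcd1, Wfs1 and Pou3f1 for CA1, Rgs14, Amigo2 and Pcp4 for CA2, and Bok and Iyd for CA3. All 8 were found in the table as protein-coding genes, and all 8 passed the filter on low values. RNA-seq was performed on hippocampal tissue in 3 WT samples and 3 TG samples, with 1 library each, numbered WT1 to WT3 and TG1 to TG3. Slc1a2, the gene of the astrocytic glutamate transporter GLT-1, has G82R and L85P in TG mice, introduced by CRISPR/Cas9 on a C57BL/6N background, and the WT controls were littermates. The age of the mice, the number of mutant copies and whether a sample held 1 animal or several were not given in the sources used here, so p-values measure only the spread between these samples. Levels are in FPKM, the reads on a gene scaled by its length and by the depth of the library.

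The pyramidal cells of the hippocampus form a chain of fields. CA3 cells receive the mossy fibres of dentate granule cells and project to CA1 through the Schaffer collaterals, CA1 carries the main output towards the subiculum, and the narrow CA2 field between them is known for its part in social memory and for synapses that resist long-term potentiation. Each field has its own set of marker genes. Marker RNA in a bulk hippocampal sample reflects how many cells of a field the dissection holds and how much RNA each cell makes. It also holds any RNA of the same gene from other cells, as Wfs1 and Pou3f1 are expressed in neocortex too. In bulk tissue, fewer cells of a type and less RNA per cell cannot be told apart.

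The reads on genes were between 16081281 and 18751057 per library, and 3 reads on a gene of 1 kb correspond to 0.160 to 0.190 FPKM. Slc1a2 itself had 177 to 202 FPKM in WT mice and 207 to 222 FPKM in TG mice. Of all genes tested, 6.35% likewise had TG above WT without overlap. These are RNA levels and give no level of the GLT-1 protein. On the log2 scale of FPKM + 0.1, WT3 and TG1 stood apart from the other libraries by a dependence on gene length: each doubling of length moved a gene by -0.06 in WT3 and by 0.06 in TG1, against -0.01 to 0.01 in the other 4. Slc1a2 was lowest in WT3 and highest in TG1, and the part of gene length in its values was not tested. Choroid plexus genes were far higher in TG1 and TG2 than in the other libraries.

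Among the 8 markers, the clearest difference was in Iyd, the CA3 marker of lowest abundance, and the second was in Amigo2, a marker of CA2. In both genes all TG libraries lay below all WT libraries, and Wfs1, a CA1 marker, had the largest difference in the opposite direction. The promoters of these 3 genes are shown for the sequence context of the members with the smallest unadjusted p. Pcp4 had a larger fold change than Amigo2 and Wfs1, with a wider spread. The promoters run from 250 bases before to 50 bases after the transcription start in RefSeq (GRCm38.p6), on the strand of the gene, and capitals mark TATAAA and the CCAAT box (CCAAT or its complement ATTGG).
Iyd, chr10:3540024-3540323, plus strand: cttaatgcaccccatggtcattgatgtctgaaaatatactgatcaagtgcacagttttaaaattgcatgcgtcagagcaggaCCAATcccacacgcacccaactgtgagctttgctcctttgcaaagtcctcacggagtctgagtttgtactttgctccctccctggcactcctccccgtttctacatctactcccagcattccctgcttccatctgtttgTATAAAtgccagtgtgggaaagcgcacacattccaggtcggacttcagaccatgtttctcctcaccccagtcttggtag
Amigo2, chr15:97247238-97247537, minus strand: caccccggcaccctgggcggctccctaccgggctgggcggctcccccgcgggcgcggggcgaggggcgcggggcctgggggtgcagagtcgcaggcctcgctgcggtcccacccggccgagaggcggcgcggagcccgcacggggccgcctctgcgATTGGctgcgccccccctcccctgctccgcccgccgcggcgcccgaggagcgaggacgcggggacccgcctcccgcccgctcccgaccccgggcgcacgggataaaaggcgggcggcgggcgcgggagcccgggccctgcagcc
Wfs1, chr5:36988933-36989232, minus strand: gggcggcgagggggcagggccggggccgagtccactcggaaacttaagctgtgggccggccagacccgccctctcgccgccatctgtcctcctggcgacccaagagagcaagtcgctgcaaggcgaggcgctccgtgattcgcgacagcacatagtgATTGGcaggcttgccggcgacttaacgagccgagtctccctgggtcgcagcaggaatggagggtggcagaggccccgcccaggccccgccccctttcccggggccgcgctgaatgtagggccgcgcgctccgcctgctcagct

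The promoter table held 6 of the 8 markers, all but Pou3f1 and Rgs14. The GC content was 49% at Iyd, 83.3% at Amigo2 and 70% at Wfs1, where the median of all 32851 promoters was 52.7%. Iyd alone among the 6 had a TATAAA, starting 29 bases upstream of the start, and 13.6% of all promoters held it on either strand. A CCAAT box, found in 37.4% of all promoters, started 168 bases upstream at Iyd, 94 bases upstream at Amigo2 and 93 bases upstream at Wfs1. The GC box GGGCGG, searched on both strands, occurred 5 times at Amigo2, 4 times at Wfs1 and 0 times at Iyd, and 35.7% of all promoters had it. The E-box CANNTG, the letters bound by basic helix-loop-helix factors, was present 3 times at Iyd and 1 time at Wfs1, while 72.3% of all promoters had it. The octamer ATGCAAAT, the motif of POU factors such as Pou3f1, was not in these letters in any of the 6 windows on either strand, and 1.74% of all promoters held it. No match overlapped a match of another motif in the 3 printed windows. These matches describe the sequence and were not tested for use.

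Over all genes, limma called 2 of 20952 genes at an adjusted p under 0.05 (0.00955%), and none was a marker of the 8. At an unadjusted p under 0.05, 1 of the 8 was called, Iyd, against 5.91% of all genes tested (3.13% higher and 2.78% lower in TG mice). The groups did not overlap in 2 of the 8, both with TG below WT, while 5.71% of all genes tested had TG below WT without overlap, 6.35% had TG above WT and 12.1% had no overlap in either direction. With limma-voom on the recovered reads, 0 of the 8 markers had an adjusted p under 0.05, and 1, Iyd, had an unadjusted p under 0.05. The share of all genes passing this unadjusted level in voom was 3.67% with TG higher and 2.31% with TG lower. The log2 fold changes of the 8 ran from -0.53 to 0.21, with 2 above and 6 below 0, where the median of all genes tested was -0.002.

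**Figure D1:**
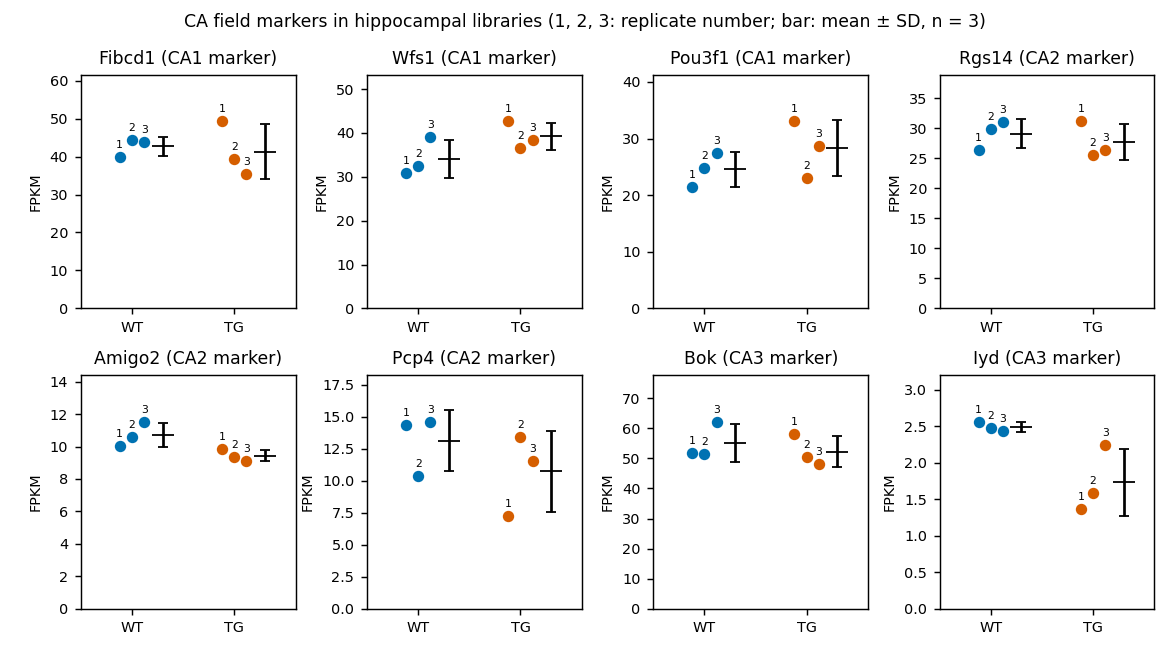
FPKM of the 8 CA field markers in each library, WT in blue and TG in orange, with the replicate number above each point and the mean ± SD (n = 3) beside each group; each vertical axis starts at 0. The TG points lie below all WT points for Amigo2 and Iyd and overlap with them for the other 6 genes.

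On the FPKM as deposited, all 3 CA1 markers were highest in TG1, and their groups overlapped. Fibcd1 (ENSMUSG00000026841, chromosome 2 from 31813290 to 31846005 in GRCm38), a membrane receptor that binds acetylated ligands such as chitin, had an FPKM of 39.9, 44.4 and 43.8 in WT mice and 49.3, 39.2 and 35.3 in TG mice, given here and for the genes that follow in the order of the replicate numbers. TG1 was the highest and TG3 the lowest of all 6 libraries, so the TG range enclosed the WT range. The log2 fold change was -0.06 (standard error 0.124, 95% interval -0.35 to 0.23, adjusted p = 0.912 in limma), and it was 0.05 without TG3. Wfs1 (ENSMUSG00000039474, chromosome 5 from 36966104 to 36989205), which encodes wolframin, a membrane protein of the endoplasmic reticulum, had an FPKM of 30.8, 32.4 and 39.04 in WT mice and 42.7, 36.7 and 38.4 in TG mice. WT3 lay within the TG range, and the other WT libraries lay below it. Wfs1 had a log2 fold change of 0.21 (standard error 0.107, 95% interval -0.04 to 0.46, unadjusted p = 0.0905, adjusted p = 0.789 in limma). Leaving out 1 library at a time gave 0.14 without WT1 (unadjusted p = 0.277) to 0.31 without WT3 (unadjusted p = 0.00992), and only the omission of WT3 brought the unadjusted p of Wfs1 under 0.05. Pou3f1 (ENSMUSG00000090125, chromosome 4 from 124656807 to 124660655), a POU-domain transcription factor, had an FPKM of 21.4, 24.8 and 27.5 in WT mice and 33.03, 23.1 and 28.7 in TG mice. TG1 was again the highest library, TG2 lay inside the WT range and TG3 just above it. Its log2 fold change was 0.20 (standard error 0.146, 95% interval -0.15 to 0.54, adjusted p = 0.789), and it was 0.08 without TG1, 0.10 without WT1 and 0.33 without TG2 (unadjusted p = 0.0474). The antisense gene Gm2164 overlaps Pou3f1 and shares 7.42% of the 50-base stretches of Pou3f1. Gm2164 had 14 to 29 reads per library, against 1523 to 2012 for Pou3f1. As the strand setting was not given, these counts cannot show how many reads of Pou3f1 the overlap affects.

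All 3 CA2 markers had lower means in TG mice, and only Amigo2 had groups apart. Rgs14 (ENSMUSG00000052087, chromosome 13 from 55369732 to 55384687), a regulator of G-protein signalling that limits plasticity in CA2 neurons, had an FPKM of 26.4, 29.8 and 31.1 in WT mice and 31.2, 25.6 and 26.4 in TG mice. TG1 was the highest library and TG2 the lowest. The log2 fold change was -0.07 (standard error 0.101, 95% interval -0.31 to 0.16, adjusted p = 0.862), and single omissions moved it from -0.16 without TG1 to -0.02 without TG2 or WT3. Amigo2 (ENSMUSG00000048218, chromosome 15 from 97244125 to 97247287), an adhesion molecule of the leucine-rich repeat family, had an FPKM of 10.1, 10.6 and 11.5 in WT mice and 9.83, 9.38 and 9.12 in TG mice. The highest TG library lay 0.225 FPKM below the lowest WT library, on 492 to 683 reads per library. The means were 10.7 ± 0.749 and 9.44 ± 0.359 (SD, n = 3 each). This is -0.18 as a log2 fold change (standard error 0.0789, 95% interval -0.37 to 0.005, unadjusted p = 0.0549, adjusted p = 0.786 in limma). The unadjusted p of Amigo2 was 0.0335 without WT1 and 0.0498 without TG1, and 0.136 without TG3. Pced1b, which lies on the opposite strand and overlaps Amigo2, had 66 to 126 reads and shared 0.379% of the 50-base stretches of Amigo2. Pcp4 (ENSMUSG00000090223, chromosome 16 from 96467606 to 96525793), a small protein that binds calmodulin, was the most variable marker relative to its level in WT mice, with an FPKM of 14.4, 10.4 and 14.6 in WT mice and 7.27, 13.4 and 11.5 in TG mice. TG1 was the lowest library, and TG2 and TG3 lay inside the WT range, on 118 to 281 reads per library. The log2 fold change of -0.32 (standard error 0.237, 95% interval -0.87 to 0.24, adjusted p = 0.789) became -0.06 without TG1, so TG1 decided its size. Of the 50-base stretches of Pcp4, 17.5% are shared with the overlapping gene Igsf5 on the same strand, which leaves part of its reads uncertain.

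The CA3 markers had the highest and the lowest level of the 8. Bok (ENSMUSG00000026278, chromosome 1 from 93685660 to 93695764), a member of the BCL2 family of cell death regulators, had an FPKM of 51.7, 51.3 and 62.2 in WT mice and 58.04, 50.6 and 48.1 in TG mice. The groups overlapped, and the highest value belonged to WT3. The log2 fold change was -0.07 (standard error 0.106, 95% interval -0.32 to 0.18, adjusted p = 0.868), and it was 0.02 without WT3. Iyd (ENSMUSG00000019762, chromosome 10 from 3540240 to 3554877), an enzyme that removes iodine from iodotyrosines and is best known from the thyroid, had an FPKM of 2.57, 2.48 and 2.44 in WT mice and 1.36, 1.58 and 2.25 in TG mice. TG1 and TG2 were well below the WT range, whereas TG3 lay only 0.184 FPKM below the lowest WT library. The means were 2.49 ± 0.0665 and 1.73 ± 0.463 (SD, n = 3 each), with a log2 fold change of -0.53 (standard error 0.184, 95% interval -0.96 to -0.10, unadjusted p = 0.0226, adjusted p = 0.786 in limma). In all, 491 genes had an unadjusted p as small as that of Iyd or smaller. The reads were 77, 65 and 74 in WT mice and 35, 46 and 66 in TG mice, so the counting error alone was 11.4% to 16.9% per library. The WT values of Iyd differed by a CV of only 2.67%, less than this counting error, and the CV in TG mice was 26.7%. Leaving out 1 library at a time gave log2 fold changes from -0.73 without TG3 (unadjusted p = 0.00237) to -0.38 without TG1, and the unadjusted p was between 0.0563 and 0.0799 when any library other than TG3 was left out. With TG3 as the only TG library the log2 fold change was -0.14, a value without a replicate in the TG group.

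**Figure D2:**
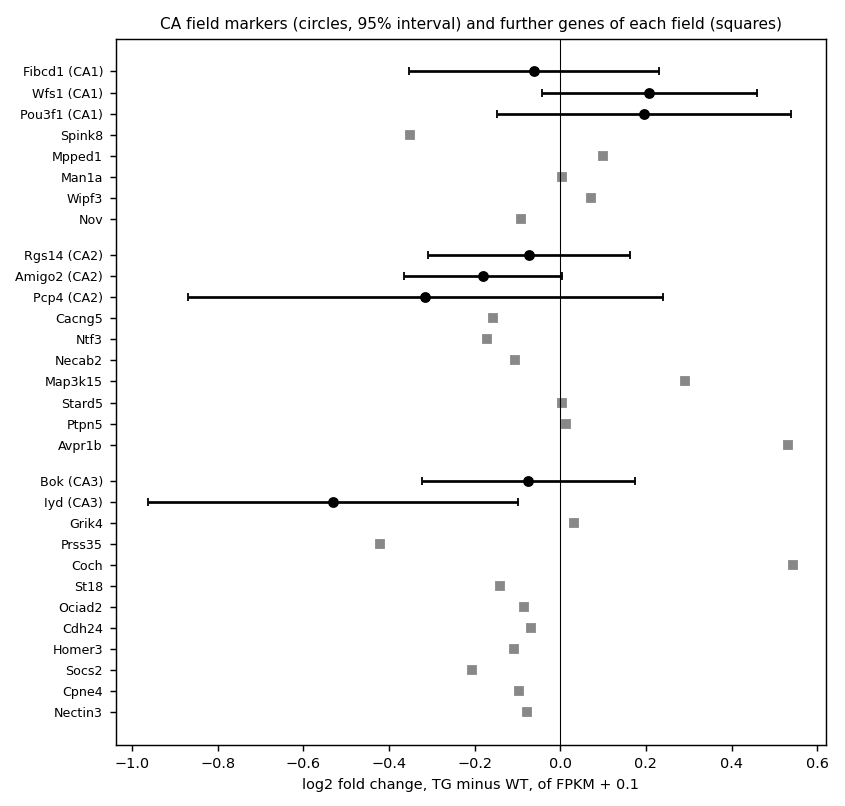
Log2 fold change (TG minus WT, on FPKM + 0.1) of the 8 CA field markers, drawn as circles with 95% intervals from limma, and of 22 of the 23 further genes of the same fields, drawn as squares without intervals. The interval leaves out 0 only for Iyd, and the squares lie between -0.42 and 0.54.

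Short genes read higher in WT3 and lower in TG1 than in the other libraries, and the markers differed in length. The gene lengths of Pcp4, Iyd and Bok were 1026, 1623 and 1840 bases, against 3163 to 4751 bases for the other 5. After each library was corrected for gene length and GC content, a step added after seeing the data, the log2 level of Iyd relative to the WT mean was 0.07, 0.08 and -0.15 in WT mice and -0.63, -0.62 and -0.08 in TG mice. TG3 then lay inside the WT range, and the groups of Iyd overlapped. After the correction the log2 fold change was -0.44 for Iyd (unadjusted p = 0.0397), -0.22 for Pcp4, -0.16 for Amigo2, -0.14 for Fibcd1, -0.10 for Rgs14, -0.09 for Bok, 0.12 for Pou3f1 and 0.16 for Wfs1. TG1 of Amigo2 also came to lie inside the WT range, at -0.05 against -0.09 to 0.06. TG1 was no longer the highest library for Fibcd1, at 0.06 against 0.09 in WT3. The same held for Rgs14, at 0.08 in TG1 against 0.11 in WT3. For Wfs1 (0.24) and Pou3f1 (0.25) TG1 stayed the highest.

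Averaged over the 6 libraries, Bok had the highest level at 53.7 FPKM, followed by Fibcd1 at 41.96, Wfs1 at 36.6, Rgs14 at 28.4, Pou3f1 at 26.4, Pcp4 at 11.9, Amigo2 at 10.1 and Iyd at 2.11 FPKM. FPKM are per length, which puts the genes on a common scale, but the length dependence of WT3 and TG1 remains in them. The ranges over the libraries were apart between Pou3f1 and Pcp4 and between Amigo2 and Iyd. The other neighbours overlapped, although Bok was above Fibcd1 and Wfs1 above Rgs14 in 6 of 6 libraries, and Fibcd1 above Wfs1 in 5 of 6. Rgs14 exceeded Pou3f1, and Pcp4 exceeded Amigo2, in 4 of 6 libraries. Bok was at the 96.1 percentile of all genes tested and Iyd at the 47.5 percentile.

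Over the 6 libraries, the Pearson correlation of log2(FPKM + 0.1) was highest between Pou3f1 and Wfs1, both of CA1, at 0.877, and next between Rgs14 of CA2 and Fibcd1 of CA1 at 0.852. The CA3 pair Iyd and Bok had -0.139, and Pcp4 had 0.239 with Amigo2 and -0.486 with Rgs14. Pcp4 and Pou3f1 were the most opposed pair at -0.734. Among 100 listed genes whose mean FPKM was 1 or more, Bok was most like Necab2 of CA2 (0.937), Amigo2 like Socs2 of CA3 (0.916), Pcp4 like the microglial gene P2ry12 (0.975) and Iyd like the myelin gene Opalin (0.875). These correlations rest on 6 libraries that share depth, length dependence and dissection, and they are given as a description.

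The balance between fields was read within each library as the mean log2 level of the CA3 markers minus that of the CA1 markers, set to 0 at the WT mean. It was 0.12, -0.06 and -0.06 in WT mice and -0.70, -0.34 and -0.21 in TG mice. All TG libraries lay below all WT libraries on this scale. With Bok as the only CA3 gene, the balance was 0.06, -0.10 and 0.04 in WT mice and -0.24, -0.09 and -0.23 in TG mice, and TG2 lay above WT2. After the length and GC correction the balance of Bok was 0.09, -0.06 and -0.03 in WT mice and -0.14, -0.07 and -0.20 in TG mice. All TG libraries then lay below all WT libraries, but only just, with TG2 at -0.072 and WT2 at -0.060. After the same correction, the balance of both CA3 markers was 0.16, 0.02 and -0.17 in WT mice and -0.48, -0.32 and -0.14 in TG mice, and TG3 lay inside the WT range. The balance of CA2 against CA1 was 0.12, -0.10 and -0.01 in WT mice and -0.61, -0.08 and -0.22 in TG mice, with TG2 inside the WT range. In TG1 the log2 level relative to the WT mean was -0.83 for Pcp4, -0.12 for Amigo2 and 0.10 for Rgs14. After the correction the CA2 balance was 0.14, -0.04 and -0.10 in WT mice and -0.37, -0.07 and -0.17 in TG mice. TG2 was again inside the WT range. Since the members carry these scores, no test was made of them.

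**Figure D3:**
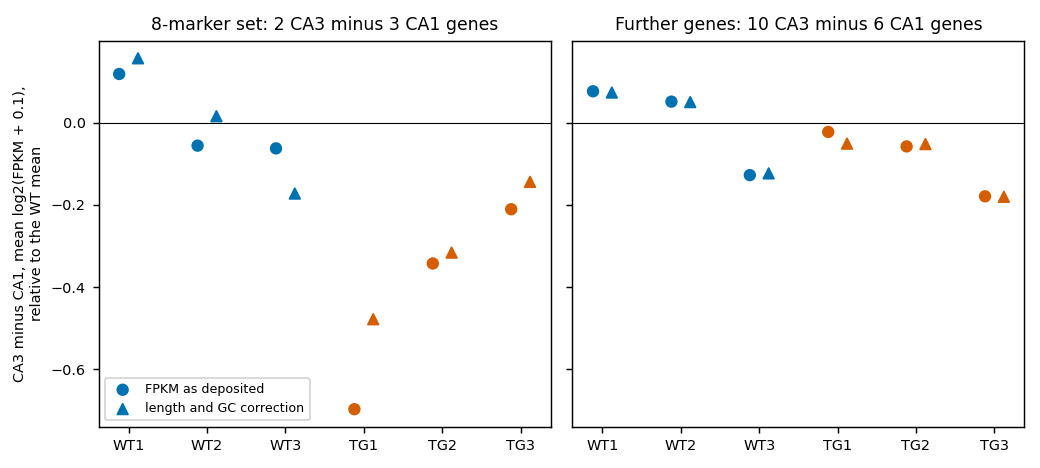
CA3 minus CA1 balance in each library, as the difference of mean log2(FPKM + 0.1) relative to the WT mean, WT in blue and TG in orange, with circles for the FPKM as deposited and triangles after the length and GC correction. The marker set (left) runs from -0.70 in TG1 to 0.16 in WT1, and the further genes of the fields (right) lie between -0.18 and 0.08 with the groups overlapping.

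Further genes of each field were compared in the same fit. Of 10 further CA3 genes, 2 had a log2 fold change above 0 and 8 below 0, with a median of -0.09. In limma, 0 of the 10 had an adjusted p under 0.05 and 1 had an unadjusted p under 0.05, and voom gave the same counts. Of all genes tested, 5.91% had an unadjusted p under 0.05 in limma. After the length and GC correction, 2 of the 10 were called at that level. In the corrected fit, 3.22% of all genes passed it with TG higher and 2.9% with TG lower. The gene called in limma and in voom was Prss35, which encodes a secreted protein of the serine protease family, with an FPKM of 2.87, 3.18 and 2.54 in WT mice and 2.44, 1.81 and 2.11 in TG mice. All TG libraries lay below all WT libraries, at a log2 fold change of -0.42 (standard error 0.147, unadjusted p = 0.0228, adjusted p = 0.786). Ociad2, the most abundant of these CA3 genes, had 44.8 ± 7.44 FPKM in WT mice and 41.9 ± 3.08 FPKM in TG mice (SD, n = 3 each). Of 6 further CA1 genes, 4 were above and 2 below 0, with a median of 0.04, 0 with an adjusted p under 0.05 and 1 with an unadjusted p under 0.05 in limma and in voom. After the length and GC correction, 0 of the 6 had an unadjusted p under 0.05. Wipf3, the most abundant of these CA1 genes, had 69.2 ± 8.95 and 72.5 ± 5.49 FPKM (SD, n = 3 each). Of 7 further CA2 genes, 4 were above and 3 below 0, with a median of 0.004 and 0 genes under 0.05 at an adjusted or an unadjusted p in limma and in voom. Avpr1b, among those above 0, had a mean of 0.065 FPKM in WT mice and 0.140 FPKM in TG mice. It passed the filter of 0.1 FPKM only through its TG libraries, so its direction carries little weight. With the filter at a mean FPKM of 1 the median of the list was -0.11. Ntf3, the neurotrophin-3 gene, had the smallest p of the 7 at 0.176 unadjusted in limma, and Necab2, a calcium-binding protein and the most abundant, had 54.96 ± 7.39 and 51.05 ± 6.56 FPKM (SD, n = 3 each). The balance of the further CA3 genes against the further CA1 genes was 0.08, 0.05 and -0.13 in WT mice and -0.02, -0.06 and -0.18 in TG mice, with the groups overlapping.

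Genes listed for the pyramidal cells of all fields were measured beside the field markers, and the part of other cells in their levels was not tested. Over the 7 pyramidal genes the median log2 fold change was 0.09, with 6 above and 1 below 0 and none under 0.05 at an adjusted or an unadjusted p in limma and in voom. The median was 0.03 after the length and GC correction, and it ran from 0.02 without TG1 to 0.15 without WT2 over single omissions, with 0.03 without WT3. Their summed level was 1648 to 1794 FPKM in WT mice and 1678 to 1882 FPKM in TG mice. Nrgn, which encodes the calmodulin-binding protein neurogranin, had 774 ± 84.6 and 782 ± 43.1 FPKM, and the transcription factor Neurod6 had 80.8 ± 9.45 and 73.5 ± 1.74 FPKM (SD, n = 3 each). When each library was centred on these 7 genes, the log2 fold change was -0.60 for Iyd (unadjusted p = 0.0244), -0.38 for Pcp4, -0.25 for Amigo2, -0.14 for Rgs14 and for Bok, -0.13 for Fibcd1, 0.13 for Pou3f1 and 0.14 for Wfs1.

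Markers of other cells and neighbouring regions were measured in the same libraries. All 10 choroid plexus genes had a log2 fold change above 0. Their median log2 deviation from WT was 3.50 in TG1, 5.01 in TG2 and -0.05 in TG3, and their summed level was 56.2 to 80.7 FPKM in WT mice and 64.7 to 3834 FPKM in TG mice. TG1 and TG2 were also the libraries in which Iyd was lowest, and the part of the choroid plexus in the difference of Iyd was not tested. The 7 oligodendrocyte genes were all below 0, with a median of -0.30 and a summed level of 596 to 759 FPKM in WT mice and 469 to 699 FPKM in TG mice. Their median deviation was lowest in TG1, at -0.66, and their part in the values of Iyd and Pcp4 was not tested either. All 5 genes of subiculum and neocortex were above 0, with a median of 0.24, and Cux2, a transcription factor of upper cortical layers, had 2.48 ± 0.279 FPKM in WT mice and 3.51 ± 0.454 FPKM in TG mice (SD, n = 3 each, unadjusted p = 0.00844, adjusted p = 0.786). The median of this list was 0.11 after the length and GC correction. The summed level of this list was 22.2 to 25.4 FPKM in WT mice and 24.1 to 31.01 FPKM in TG mice, and since Wfs1 and Pou3f1 are expressed in neocortex too, its part in their values was not tested. Of the 8 dentate granule genes, 6 were below 0, with a median of -0.12, and Tdo2 had 2.12 ± 0.382 and 1.52 ± 0.227 FPKM. Of the 4 ventral hippocampal genes, 3 were below 0, with a median of -0.17, and Grp, the gastrin-releasing peptide gene, had 21.9 ± 3.24 and 17.2 ± 1.96 FPKM (SD, n = 3 each, unadjusted p = 0.0318). The median was 0.20 for the 5 thalamic genes tested, 0.03 for the 7 striatal genes, -0.001 for the 6 interneuron genes, 0.02 for the 6 astrocyte genes, 0.12 for the 6 microglial genes and 0.27 for the 6 meningeal genes. After the length and GC correction these medians were 0.09, -0.04, -0.01, -0.01, 0.10 and 0.17, in the same order. Before the correction, single libraries decided several of the medians. Without WT3 the median was -0.03 for the thalamic, -0.08 for the striatal, 0.07 for the interneuron and -0.11 for the meningeal genes, and without TG3 it was 0.01 for the microglial and -0.01 for the astrocyte genes. The oligodendrocyte median was -0.12 without TG1, the dentate median was -0.003 without WT2, and the ventral median ran from -0.31 without TG1 to -0.06 without WT1. The thalamic gene Gbx2 was at 0 FPKM in 5 of 6 libraries and did not pass the filter. In limma and in voom 0 genes of these lists had an adjusted p under 0.05. At an unadjusted p under 0.05, limma called 6 choroid plexus genes, 2 of subiculum and neocortex, 2 of the ventral hippocampus and 1 each of the dentate, oligodendrocyte and microglial lists. Voom called 2 genes each of the choroid plexus, ventral and oligodendrocyte lists, 1 each of the dentate, subiculum and neocortex, and meningeal lists, and 0 of the microglial list. The share over all genes tested was 5.91% in limma, and 3.67% higher and 2.31% lower in voom. After the length and GC correction, limma called 7 choroid plexus genes and 2 of subiculum and neocortex. It called 1 each of the dentate and oligodendrocyte lists and 0 of the ventral, microglial and meningeal lists. The share over all genes in this corrected fit was 3.22% higher and 2.9% lower.

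**Figure D4:**
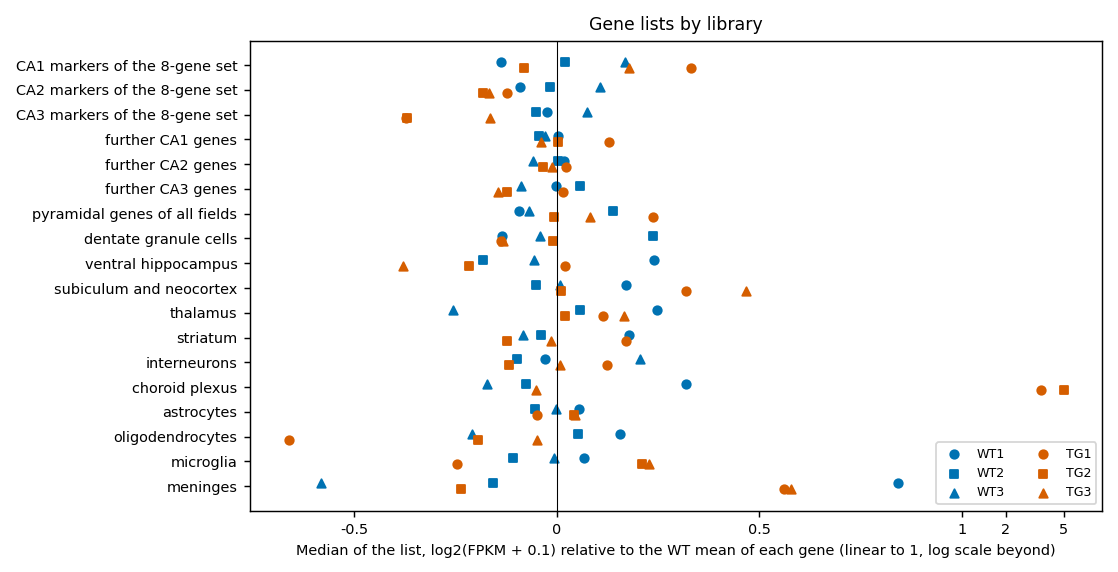
Median of each gene list in each library, as log2(FPKM + 0.1) relative to each gene's mean in WT, WT in blue and TG in orange, with a symbol for each replicate number; the horizontal axis is linear up to 1 and logarithmic beyond. The choroid plexus genes lie at 3.50 in TG1 and 5.01 in TG2, the oligodendrocyte genes are lowest in TG1 at -0.66, and the lists of further CA1, CA2 and CA3 genes stay between -0.14 and 0.13.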

How the data were processed

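The gene table of hippocampal RNA-seq (3 WT and 3 TG samples) was analysed. The authors counted reads with HTSeq and deposited FPKM, 1 column per sample. The study's methods give Trizol and NEBNext, whereas the labels give RNeasy and SMARTER kits. The submitters' processing notes list GRCm38, and 53499 of the 54409 gene identifiers found in GENCODE M21 had the same start and end there. The aligner and strand setting were not given in the sources used here.

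Multiplying FPKM by gene length gave whole reads for 100% of values (tolerance 0.05 reads). Limits from reads cover counting error only. Genes averaging 0.1 FPKM or more (20952) entered limma 3.58.1 (lmFit, eBayes with trend, R 4.3.3) on log2(FPKM + 0.1), without covariates. P-values were adjusted by Benjamini-Hochberg over all of them (threshold 0.05). This scale understates changes of low genes. The fit was checked on simulated data. Python 3.11.15 made the summaries.

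The alternatives were other pseudocounts, filters, scalings, no trend, a replicate block, leaving out libraries and limma-voom. The length and GC correction (20925 genes) and the omission of TG1 with TG2 were added after seeing the data. The markers and lists were chosen with earlier results of these data known. Named genes are the 8 markers, in each list the one of lowest p or highest level, and the listed gene most correlated with each marker. Gbx2 and Avpr1b are named for their low values. Pvrl3 was matched to Nectin3. Of the further CA1 genes, 1 counts in its list but is not reported here by name or value.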

Additional observations from a re-analysis of the deposited data

How the results depend on the processing

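Of the 8 markers, 6 kept the direction of their log2 fold change in all alternatives. The exceptions were Bok, at 0.016 without WT3 (range over single omissions -0.15 to 0.016), and Fibcd1, at 0.045 without TG3 (range -0.20 to 0.045). At an unadjusted p under 0.05, markers higher in TG mice numbered 1 with TPM (Wfs1) and 0 to 1 over single omissions (Pou3f1 without TG2, Wfs1 without WT3), against 0 in the reported fit. Of all genes, 3.49% were higher with TPM, 2.16% without TG2 and 2.14% without WT3. Markers lower in TG mice numbered 2 without a filter (Amigo2 and Iyd), where 2.39% of all genes were lower. Over single omissions they numbered 0 to 1, against 1 reported (Iyd), and the gene changed. It was Amigo2 without WT1 or without TG1, and Iyd without TG3. Of all genes, 3% were lower without WT1, 1.94% without TG1 and 2.24% without TG3. Without both TG1 and TG2, TG3 is the only TG library and is assumed to vary like the WT libraries. The number of markers called in that fit says nothing about stability. Over all genes, the 1 call higher and the 1 call lower in TG mice at an adjusted p under 0.05 became 6 and 3 without the trend. Both became 0 with voom, the length and GC correction, no filter, a pseudocount of 0.01 or 1, the replicate block, or without both TG1 and TG2. The higher call also became 0 with a filter at a mean FPKM of 1. Single omissions gave 0 to 6 calls higher, with 6 without TG1, and 0 calls lower. The median of the further CA1 genes was -0.031 when centred on the pyramidal genes, -0.027 after the length and GC correction and -0.039 without both TG1 and TG2. That of the further CA2 genes was -0.065 when centred, -0.11 with the filter at 1, -0.068 after the correction, and -0.047 to 0.020 over single omissions, lowest without TG2. Centring moved the median of all genes to -0.07. Over all genes tested, the deviations of same-numbered libraries correlated at 0.01, 0.04 and 0.003, and those of the other pairs at -0.03 to 0.02. Such correlations cannot exclude a pairing that moves few genes. With the replicate block, Iyd kept a log2 fold change of -0.53 (unadjusted p = 0.0307 in limma). The cause of these differences was not tested. With 35 to 77 reads per library, Iyd is the marker most limited by depth.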
